A study of Mus musculus with 8 samples.

Results

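The Slc22 family encodes membrane carriers that move organic cations, organic anions and carnitine into and out of cells. Liver and kidney use them to take up drugs, toxins, hormone conjugates and metabolites from the blood. Many rodent liver genes differ between the sexes, because the pattern of growth hormone release differs between males and females and acts on hepatocytes through the transcription factor STAT5. Bcl6 is a zinc-finger repressor of transcription whose DNA motif overlaps that of STAT5.

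Described here are 8 Slc22 genes, picked by symbol from 26551 measured genes and unnamed transcripts for their level and change over the sample groups. They are Slc22a2 and Slc22a3 (organic cation carriers), Slc22a5 (a carnitine carrier), Slc22a7 (an organic anion carrier) and Slc22a26, Slc22a27, Slc22a28 and Slc22a30, which lie together on chromosome 19. Because they were picked for these values, the levels and differences of the 8 genes are given as a description, without p-values. The RNA came from whole liver of mice aged 10 to 11 weeks and was read on 1-colour arrays. There were 4 groups of n = 2 arrays: wild-type males, males with liver-specific Bcl-6 deficiency (labelled knockout), wild-type females, and females with the same deficiency. The sources used here name neither the strain nor the promoter that drove the deletion, and do not say whether each array is a separate animal. Any p-value therefore measures only the spread between these arrays, and their number limits the precision.

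All levels below are log2 signals relative to the 75th percentile of their own array, and levels of different probes are not compared with each other. Bcl6 itself, read by 1 probe, was 3.97 and 2.91 on the wild-type male arrays, 4.49 and 4.01 in males labelled knockout, 2.95 and 0.86 in wild-type females, and 1.62 and 4.41 in females labelled knockout. Its level in the knockout groups was thus no lower than in wild type. The position of this probe against the deletion is unknown here, so the genotype labels stay unchecked and each direction below follows them. Xist and the Y-linked Ddx3y separated the male from the female arrays as labelled. All 10 hepatocyte markers were above background, with a summed linear level of 5606 to 6593 over the 8 arrays. By limma 1 of them passed, Ttr, lower by 0.50 ± 0.10 in males labelled knockout and by 0.56 ± 0.10 in females (adjusted p = 0.031 and 0.033). Of all features 4.93% were lower in males and 2.45% in females. Both calls of Ttr were lost with no filter, with the replicate number as a block and with only the groups compared. Both also ended when any single male array or either female knockout array was left out. The female call ended without either female wild-type array too. On each array 33677 to 36459 of 59305 spots were well above background, and the dimmest such signal lay at -4.54 to -4.03 on the log2 scale.

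The 8 genes fell into 3 patterns. Slc22a2 was below background in both wild-type groups and well above it in both groups labelled knockout. Slc22a26 and Slc22a27 were below background in wild-type males and at similar levels in the other 3 groups. The remaining 5 genes were well above background on all 8 arrays and differed by at most 1.22 on the log2 scale between any 2 groups compared.

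**Figure D1:**
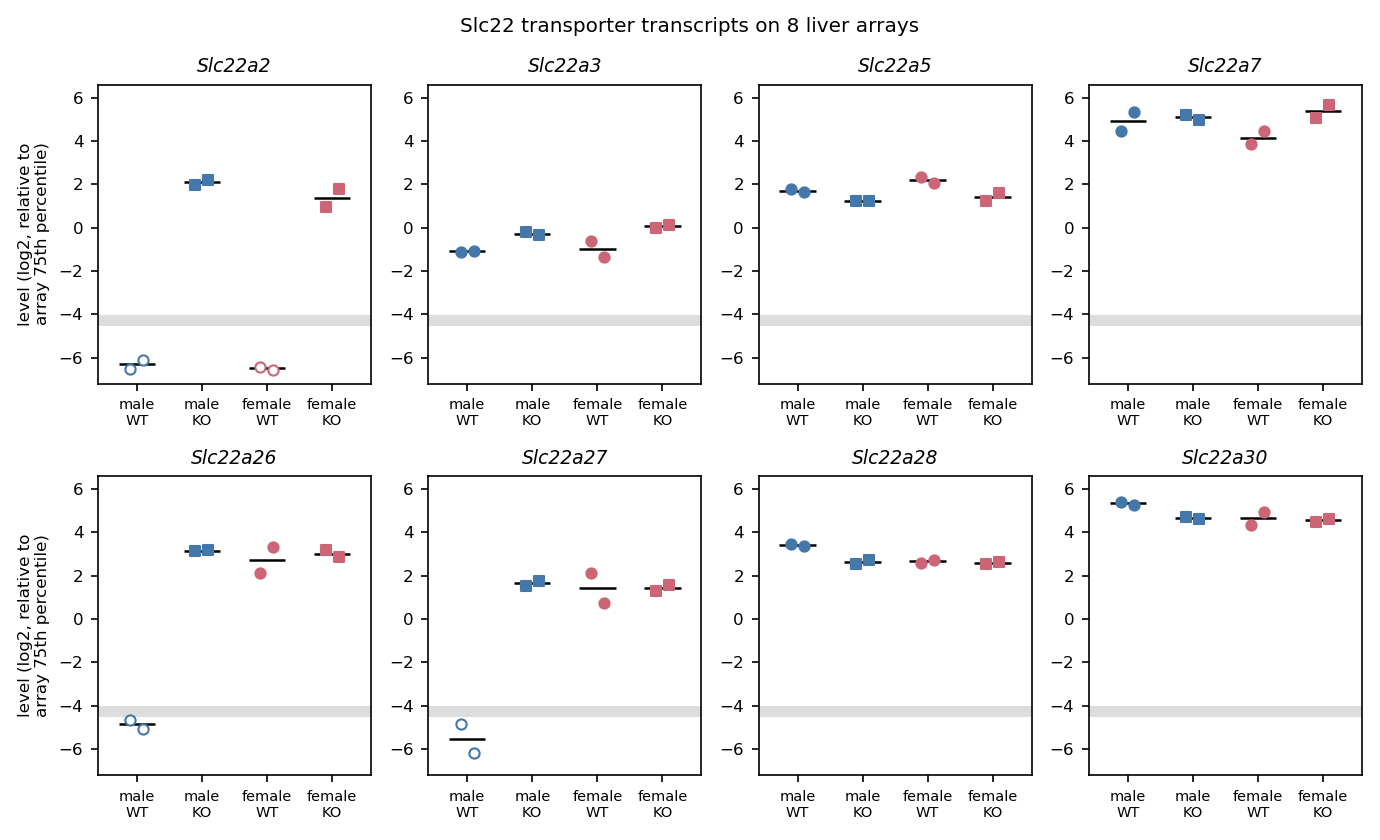
Level of each of the 8 genes on each array (log2 relative to the 75th percentile of the array, 2 arrays per group, WT wild type, KO labelled knockout); lines are group means, open symbols are groups with no array well above background, and the grey band spans the dimmest well-detected signal of the arrays, -4.54 to -4.03. Slc22a2 is below the band in both wild-type groups, and Slc22a26 and Slc22a27 are below it in wild-type males alone.

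Slc22a2 is the organic cation transporter OCT2, best known from the kidney tubule, where it takes up cationic drugs and creatinine from the blood. Its level was -6.51 and -6.13 in wild-type males and -6.41 and -6.59 in wild-type females, not well above background on any of these arrays. It was 1.96 and 2.20 in males labelled knockout and 0.97 and 1.78 in females labelled knockout. Wild-type arrays and arrays labelled knockout did not overlap in either sex, and the wild-type sexes overlapped. The mean in males labelled knockout was at least 79.9-fold above wild-type males (fitted log2 difference 8.40 ± 0.28 SE), and in females at least 56.3-fold (7.87 ± 0.28). "At least" means that a signal below the dimmest well-detected one of its array was raised to that one before the fold was taken. With any 1 of the arrays compared left out, the bounds ran from 68.9 to 92.7-fold in males and from 42.5 to 74.6-fold in females. Among arrays labelled knockout, males were 0.71 ± 0.28 above females and the arrays did not overlap. The male effect exceeded the female effect by 0.53 ± 0.40.

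In whole liver, more cells of a type and more RNA per cell cannot be told apart. Of 10 kidney tubule markers 5 were above background, while Kap, Umod, Slc12a3, Lrp2 and Cubn were not. Their summed linear level was 1.94 to 3.45 in wild-type males, 1.34 to 1.5 in males labelled knockout, 1.49 to 1.51 in wild-type females and 1.30 to 1.47 in females labelled knockout. By limma 1 of the 5 passed in males, as lower, and none in females, where 4.93% and 2.45% of all features were lower. None of the 5 had an unadjusted p under 0.05 in females, where 6612 of 26551 features did. The male call was Slc12a1, the salt carrier of the loop of Henle. Its level was -2.14 and 0.85 in wild-type males and below background on the other 6 arrays. Slc12a1 thus passed the filter through the wild-type males alone, so its adjusted p is not read as support. It was at least 11.9-fold lower in males labelled knockout (adjusted p = 0.0159), a call lost with normexp, in a fit of only the groups compared and without either male knockout array (highest adjusted p 0.140). All 8 endothelial markers were above background, and their summed level was 72.4 to 75.5 in wild-type males against 107 to 114 in males labelled knockout, and 88.6 to 96.0 in wild-type females against 104 to 108 in females labelled knockout. By limma, 3 of the 8 endothelial markers passed in males and 1 in females, all higher, where 5.77% and 3.48% of all features were higher. Vwf rose by 2.63 ± 0.16 in males and by 1.15 ± 0.16 in females (limma, adjusted p = 0.000669 and 0.0176). In males Lyve1 rose by 1.07 ± 0.15 and Stab2 by 0.55 ± 0.11 (limma, adjusted p = 0.01 and 0.029). The female call of Vwf and the male call of Stab2 were lost with no filter and with only the groups compared. Dropping any single male array or either female knockout array ended the Stab2 call too. For Vwf in females, the call did not survive dropping replicate 2 of the wild-type females or either female knockout array. Lyve1 was no longer called in males once either male knockout array was removed. The male call of Vwf was kept in all 16 alternatives. Stellate cell markers summed to 63.8 to 76.4 in wild-type males, against 85.0 to 94.8 in males labelled knockout, and to 62.9 to 103 and 89.2 to 107 in the female groups. Of the 7 stellate markers 6 were higher and 1 lower in arrays labelled knockout, in each sex. By limma 2 passed in males, as higher, and 1 in females, as lower, where 5.77% and 2.45% of all features did so. Col1a1 and Pdgfrb rose in males by 1.05 ± 0.21 and 0.67 ± 0.15 (limma, adjusted p = 0.0323 and 0.0432), and both calls ended when any single male array or either female knockout array was removed (highest over all alternatives 0.147 and 0.203). Lrat, which esterifies retinol, fell by 1.25 ± 0.24 in females (adjusted p = 0.0407, lost in 10 of 16 alternatives, highest 0.140) and differed by -1.01 ± 0.24 in males (adjusted p = 0.0526). Of 7 adrenal cortex markers 4 were above background. Their summed level was 7.58 to 10.3 in wild-type males and 7.83 to 9.37 in males labelled knockout. In wild-type females it was 4.84 to 5.27, against 8.246 to 9.055 in females labelled knockout. Of the 4, 1 was higher and 3 lower in males labelled knockout (median difference -0.60), and 2 and 2 in females. By limma 1 passed in males, as higher, and 1 each way in females. Of all features 5.77% were higher in males, and 3.48% higher and 2.45% lower in females. Nr5a1 rose by 1.84 ± 0.205 in males and by 1.12 ± 0.205 in females (limma, adjusted p = 0.0051 and 0.0349). Star fell by 1.26 ± 0.22 in females and differed by -0.39 ± 0.22 in males (limma, adjusted p = 0.0303 and 0.304). At an unadjusted limma p under 0.05 there were 3 of the 4 markers in males, beside 7228 of 26551 features. The female calls of Nr5a1 and Star were both lost with no filter and with only the groups compared. Both also ended when any single male array or either female knockout array was left out. That of Nr5a1 was lost with the replicate block too, and that of Star without female wild-type replicate 2. The part of these cell types in any difference given here was not tested.

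Slc22a2 lies next to Slc22a3 among the protein-coding genes of its stretch of chromosome 17. Further along, Igf2r, which encodes the receptor for mannose-6-phosphate and insulin-like growth factor 2, differed by 0.30 in males and 0.06 in females between knockout and wild type, and the non-coding RNA Airn by 0.49 and 0.08. Neither passed limma's threshold in any contrast.

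Slc22a3 encodes OCT3, also called the extraneuronal monoamine transporter, which carries monoamines and other cations. Its level was -1.15 and -1.06 in wild-type males, against -0.21 and -0.35 in males labelled knockout. Wild-type females had -0.61 and -1.38, and females labelled knockout -0.02 and 0.11. Arrays labelled knockout were higher than wild type in both sexes without overlap. The difference was 0.82 ± 0.24 in males (1.77-fold) and 1.04 ± 0.24 in females (2.06-fold). The size in females depended on the wild-type arrays, being between 0.66 and 1.43 with 1 array left out. Males minus females was -0.11 ± 0.24 among wild-type arrays and -0.33 ± 0.24 among arrays labelled knockout, and the wild-type sexes overlapped. For this gene the groups ran, from high to low, female knockout, male knockout, female wild type and male wild type, and only the last pair overlapped.

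Slc22a5 encodes OCTN2, the sodium-dependent carrier that brings carnitine into cells, where it is needed to carry fatty acids into mitochondria. Its level was 1.76 and 1.62 in wild-type males, with 1.23 and 1.22 in males labelled knockout, 2.32 and 2.04 in wild-type females and 1.22 and 1.57 in females labelled knockout. Wild-type females were the highest group and did not overlap with any other. Knockout minus wild type was -0.47 ± 0.16 in males and -0.78 ± 0.16 in females, 1.38-fold and 1.72-fold lower. Wild-type males minus wild-type females was -0.48 ± 0.16, and the arrays labelled knockout overlapped between the sexes (-0.17 ± 0.16). The other probe for Slc22a5 gave -0.25 in males and -0.67 in females for knockout minus wild type, the same directions. On that probe the male arrays overlapped by genotype, -2.15 and -2.33 in wild type against -2.33 and -2.66 in those labelled knockout.

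Of 14 genes of carnitine synthesis, transport and use that were tested, 2 were lower and none higher in males labelled knockout, where 4.93% of all features were lower and 5.77% higher. In females 1 was lower and none higher, beside 2.45% and 3.48% of all features. Crot, the peroxisomal carnitine octanoyltransferase, fell by 0.65 ± 0.12 in males and by 0.72 ± 0.12 in females (limma, adjusted p = 0.0221 and 0.0246). Leaving out any single male array ended the male call (highest adjusted p over all alternatives 0.119). In females it was lost without either female wild-type array, among others (highest over all alternatives 0.120). Slc22a4, which encodes OCTN1, a carrier of ergothioneine, and is a neighbour of Slc22a5 on chromosome 11, fell by 1.52 ± 0.31 in males (adjusted p = 0.0332), from -0.69 and -0.75 to -2.29 and -2.20. Its difference in females was -1.03 ± 0.31 (limma, adjusted p = 0.113). The male call ended when any single male array or either female knockout array was left out (highest adjusted p over all alternatives 0.143). Slc22a21, a carnitine carrier that lies between them, differed by -0.37 ± 0.13 in males and -0.25 ± 0.13 in females (adjusted p = 0.145 and 0.300). The median difference of the 14 genes was -0.07 in males and -0.16 in females, beside -0.04 and 0.00 for all features.

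Slc22a7 encodes OAT2, an organic anion carrier of liver and kidney. Its arrays scattered more than those of the other genes read above background throughout. Its level was 4.46 and 5.33 in wild-type males, with 5.18 and 4.98 in males labelled knockout, 3.84 and 4.46 in wild-type females and 5.08 and 5.66 in females labelled knockout. The wild-type females lay below both groups labelled knockout without overlap, and every other pair of groups overlapped. Females labelled knockout were 1.22 ± 0.36 above wild-type females (2.33-fold), and males labelled knockout 0.19 ± 0.36 above wild-type males. Wild-type males were 0.75 ± 0.36 above wild-type females, with overlap. With 1 array left out the female difference stayed between 0.91 and 1.53, while the male difference ran from -0.25 to 0.62.

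Slc22a26, Slc22a27, Slc22a28, Slc22a29 and Slc22a30 follow each other in this order on chromosome 19, with pseudogenes and a non-coding RNA between some of them. They belong to a rodent branch of the organic anion transporters whose substrates are less well described than those of OAT1 to OAT3. Their start regions are shown because neighbouring genes here followed different patterns. RefSeq's windows on GRCm38.p6 run from 250 bases before to 50 bases after each gene's start, 5′ to 3′ on the minus strand. They are chr19:7802618-7802917 for Slc22a26, chr19:7965978-7966277 for Slc22a27, chr19:8218851-8219150 for Slc22a29, chr19:8131933-8132232 for Slc22a28 and chr19:8405056-8405355 for Slc22a30. Capitals mark a match to any of the motifs TTCNNNGAA (read by STAT5 and Bcl6), the same with 4 bases in place of 3 between TTC and GAA (the 4-spaced form), CAAAGTCCA (HNF4A) and GTTAAT (HNF1 half-site), searched on both strands.
Slc22a26: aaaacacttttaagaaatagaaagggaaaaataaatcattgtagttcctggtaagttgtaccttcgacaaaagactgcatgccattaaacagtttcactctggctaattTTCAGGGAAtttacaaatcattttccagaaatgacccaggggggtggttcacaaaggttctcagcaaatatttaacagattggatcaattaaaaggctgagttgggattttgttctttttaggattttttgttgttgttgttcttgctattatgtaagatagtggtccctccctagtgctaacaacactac
Slc22a27: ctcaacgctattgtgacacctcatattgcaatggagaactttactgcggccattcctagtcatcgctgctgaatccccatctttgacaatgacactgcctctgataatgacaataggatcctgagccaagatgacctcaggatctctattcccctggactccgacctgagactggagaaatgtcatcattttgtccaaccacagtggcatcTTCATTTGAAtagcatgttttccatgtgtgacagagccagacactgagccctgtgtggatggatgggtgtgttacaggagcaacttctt
Slc22a29: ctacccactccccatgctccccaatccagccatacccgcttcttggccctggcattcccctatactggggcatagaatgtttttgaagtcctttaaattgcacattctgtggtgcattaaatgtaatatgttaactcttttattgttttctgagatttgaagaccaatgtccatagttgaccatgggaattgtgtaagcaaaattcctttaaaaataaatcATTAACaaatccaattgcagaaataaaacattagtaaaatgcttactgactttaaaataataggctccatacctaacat
Slc22a28: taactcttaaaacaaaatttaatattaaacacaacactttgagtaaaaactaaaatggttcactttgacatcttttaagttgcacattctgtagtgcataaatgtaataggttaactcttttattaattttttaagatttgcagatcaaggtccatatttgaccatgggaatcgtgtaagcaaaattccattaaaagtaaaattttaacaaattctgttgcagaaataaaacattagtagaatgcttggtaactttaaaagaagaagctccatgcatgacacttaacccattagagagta
Slc22a30: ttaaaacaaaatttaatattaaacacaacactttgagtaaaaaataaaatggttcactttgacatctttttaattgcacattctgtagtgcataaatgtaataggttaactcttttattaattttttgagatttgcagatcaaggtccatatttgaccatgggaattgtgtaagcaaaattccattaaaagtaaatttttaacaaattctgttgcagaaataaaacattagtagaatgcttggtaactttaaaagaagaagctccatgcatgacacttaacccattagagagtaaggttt
The match in Slc22a26 is TTCAGGGAA, a TTCNNNGAA that begins 141 bases before the start. The match in Slc22a27 is TTCATTTGAA, the 4-spaced form, and begins 39 bases before it, and that in Slc22a29 is GTTAAT on the opposite strand, at 29 bases before. Slc22a28 and Slc22a30 have none of these letters in their windows, and neither do Slc22a2, Slc22a3 and Slc22a5, while Slc22a7 is not used here. Of 32851 promoter windows of the same length, 8.30% hold TTCNNNGAA, 6.95% the 4-spaced form, 0.475% CAAAGTCCA and 7.10% GTTAAT. Among further Slc22 genes, TTCNNNGAA also occurs in the windows of Slc22a15, Slc22a16 and Slc22a19. The 4-spaced form occurs in those of Slc22a8 and Slc22a22, and GTTAAT in those of Slc22a6 and Slc22a8. A match is a description of the sequence and shows no binding. The windows of Slc22a28 and Slc22a30 were 94.1% identical when aligned, the highest of all Slc22 pairs, whose median was 49.2%. Slc22a29 was 68.1% identical to Slc22a30 and 68.0% to Slc22a28, and Slc22a26 was 54.9% identical to Slc22a30.

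Slc22a26 was read at -4.66 and -5.07 in wild-type males, not well above background. It stood at 3.14 and 3.16 in males labelled knockout, 2.12 and 3.31 in wild-type females and 3.18 and 2.85 in females labelled knockout. Wild-type males were apart from every other group, and those 3 groups overlapped with each other. Wild-type males were at least 124-fold below wild-type females (fitted -7.58 ± 0.38). Males labelled knockout were at least 168-fold above wild-type males (8.02 ± 0.38) and 0.14 ± 0.38 from females labelled knockout. In females, knockout minus wild type was 0.30 ± 0.38. The sex bound rested on the wild-type females: it was 187-fold without replicate 1 and 81.9-fold without replicate 2. The male knockout bound lay between 145-fold and 194-fold with 1 array left out.

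Slc22a27, the next gene, followed the same course at its own level. It was -4.87 and -6.20 in wild-type males, not well above background, against 1.53 and 1.77 in males labelled knockout. Wild-type females had 2.13 and 0.73, and females labelled knockout 1.30 and 1.58. Again wild-type males were apart from all others and the other 3 groups overlapped. Wild-type males were at least 50.9-fold below wild-type females (-6.96 ± 0.57), a bound of 31.3-fold without female wild-type replicate 1 and 82.7-fold without replicate 2. Males labelled knockout were at least 59.4-fold above wild-type males (7.19 ± 0.57). The 2 groups labelled knockout differed by 0.21 ± 0.57 and the 2 female groups by 0.01 ± 0.57. The other probe for Slc22a27 gave 6.85 for knockout minus wild type in males and -6.67 for wild-type males minus females. On wild-type male replicate 2 both probes had the same value of -6.20.

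P-values of the other Slc22 genes are descriptive, since their list was drawn up with earlier results of these data known. Slc22a29 is among them, not among the 8 genes, and lies between Slc22a28 and Slc22a30. It was -5.94 and -6.24 in wild-type males, with -0.70 and -0.30 in males labelled knockout, 1.25 and -0.67 in wild-type females and -0.45 and -0.30 in females labelled knockout. It rose at least 13.4-fold in males labelled knockout (5.59 ± 0.58; limma, adjusted p = 0.00398), a call kept in all 15 alternatives that gave a value. It was at least 23.1-fold lower in wild-type males than in wild-type females (-6.38 ± 0.58; adjusted p = 0.0104). That bound was 11.9-fold without female wild-type replicate 1 and 45.0-fold without replicate 2, and the call ended when male wild-type replicate 2 was left out and in a fit of the 2 wild-type groups alone (highest adjusted p 0.129). In females the difference was -0.67 ± 0.58 (adjusted p = 0.515), and the male effect minus the female effect, 6.26 ± 0.82, missed the threshold (adjusted p = 0.0812).

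Slc22a28 and Slc22a30, interleaved with these genes, differed by less and in the opposite direction. Slc22a28 was 3.45 and 3.37 in wild-type males, with 2.54 and 2.73 in males labelled knockout, 2.58 and 2.75 in wild-type females and 2.54 and 2.62 in females labelled knockout. Wild-type males were the highest group and stood apart from the other 3, which overlapped. They were 0.75 ± 0.12 above wild-type females (1.68-fold). Knockout minus wild type in males was -0.77 ± 0.12, or 1.71-fold lower. The other Slc22a28 probe gave 1.23 for males minus females and -1.07 for knockout minus wild type in males. In females, knockout minus wild type was -0.08 ± 0.12.

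Slc22a30 was 5.42 and 5.27 in wild-type males, with 4.71 and 4.62 in males labelled knockout, 4.36 and 4.94 in wild-type females and 4.49 and 4.61 in females labelled knockout. Wild-type males were again above all other arrays. Knockout minus wild type was -0.68 ± 0.20 in males (1.6-fold lower) and -0.10 ± 0.20 in females. Wild-type males were 0.70 ± 0.20 above wild-type females, and this ran from 0.40 to 0.99 with 1 array left out. Its other 2 probes gave -0.65 and -0.69 for males labelled knockout. Genes of this cluster are similar in sequence, so a probe may bind more than 1 of them and values of single genes are uncertain to that extent.

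**Figure D2:**
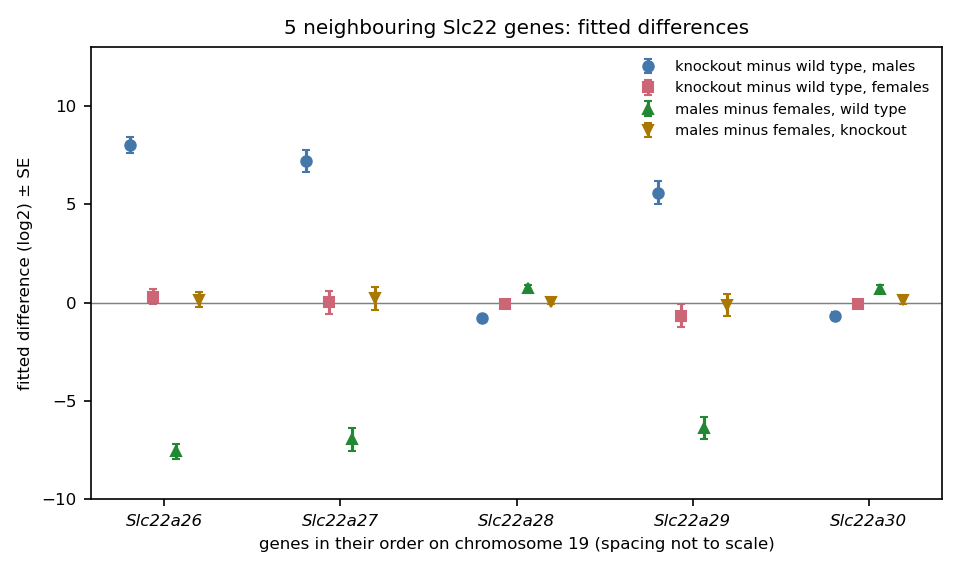
Fitted log2 differences ± SE of the 5 neighbouring genes in their order on chromosome 19, for knockout minus wild type in males and females and for males minus females within each genotype label. Slc22a26, Slc22a27 and Slc22a29 lie at 5.59 to 8.02 for males labelled knockout and at -7.58 to -6.38 for wild-type males minus females, while Slc22a28 and Slc22a30 lie at -0.77 and -0.68 and at 0.75 and 0.70; the same wild-type male arrays enter both differences.

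**Figure D3:**
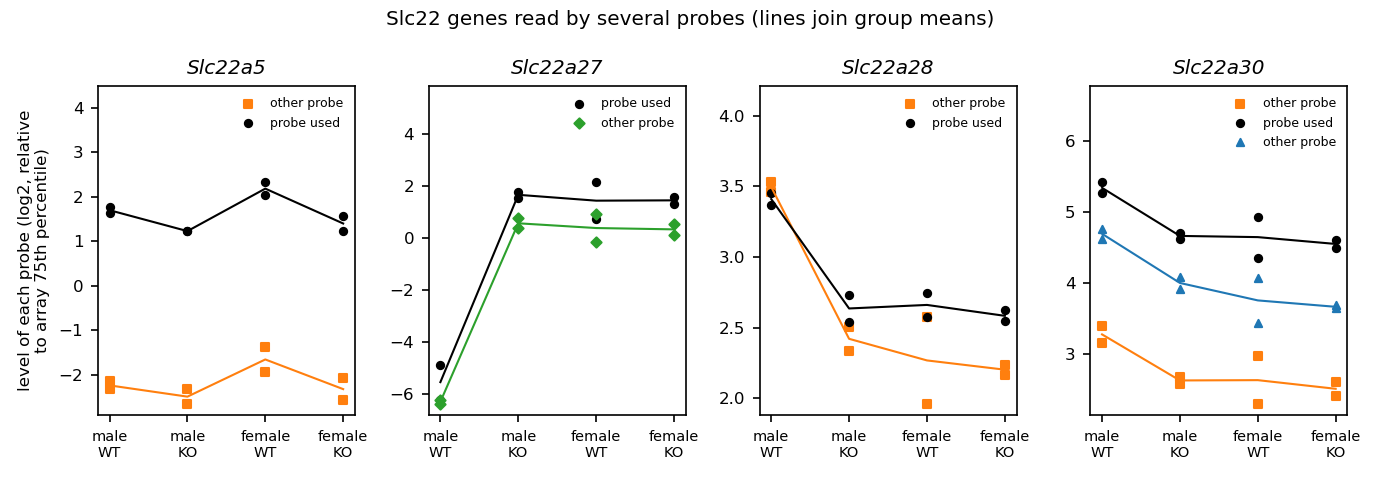
Levels of every probe of the 4 genes read by several probes, by group (log2 relative to the 75th percentile of the array; points are arrays, lines join group means). The probes of a gene differ in level and follow a similar course over the groups, with differences of unlike size for some genes. For knockout minus wild type in males the 3 Slc22a30 probes gave -0.68, -0.65 and -0.69. Those of Slc22a27 gave 7.19 and 6.85, those of Slc22a28 -0.77 and -1.07, and those of Slc22a5 -0.47 and -0.25.

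Set against all features, the counts read as follows. In males labelled knockout 4 of the 8 genes were past limma's threshold of adjusted p under 0.05 (Slc22a2, Slc22a26 and Slc22a27 higher, Slc22a28 lower), where 10.7% of the 26551 features were past it in either direction, 5.77% higher and 4.93% lower. In females labelled knockout 2 of the 8 were (Slc22a2 higher, Slc22a5 lower), beside 5.93% of all features, 3.48% higher and 2.45% lower. Between wild-type males and females there were 2, Slc22a26 and Slc22a27, both lower in males, beside 0.975%, of which 0.614% were higher and 0.362% lower in males. Between males and females labelled knockout limma put none of the 8 past it (1 at an unadjusted p under 0.05), beside 0.0753%, or 0.0565% higher and 0.0188% lower in males. For the male effect minus the female effect there was 1, Slc22a26 at 7.71 ± 0.54, beside 0.188%, or 0.0904% above and 0.0979% below 0. Slc22a27 stood at 7.18 ± 0.81 for the same quantity and was not past it. Nothing is read from these counts, since the 8 genes were picked for these values.

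Arrays of the groups did not overlap for 7 of the 8 genes in males by genotype, 4 in females by genotype, 5 by sex among wild-type arrays and 3 by sex among those labelled knockout, where 62.0%, 55.5%, 47.8% and 41.3% of all features also did not. The median size of the difference was 0.80, 0.54, 0.72 and 0.19 for the 8 genes in the same order, beside 0.24, 0.24, 0.20 and 0.12 for all features. Females occupied row 1 of the slide and males row 2, which means that sex and row cannot be told apart. Each row held both genotypes. The comparisons by genotype in males and by sex in wild type share the wild-type male arrays.

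Several of these placements depended on single arrays. Slc22a28 was not past the threshold in males without any 1 of the 4 male arrays, its difference then lying between -0.87 and -0.68. Slc22a5 was not past it in females in any fit without 1 of the 8 arrays (-0.96 to -0.61). The contrast of effects for Slc22a26 was not past it without male wild-type replicate 2 or without any 1 of the 4 arrays labelled knockout (7.12 to 8.31 over the 8 such fits). With 1 array left out the difference of Slc22a2 stayed between 8.21 and 8.59 in males and between 7.47 and 8.28 in females. In males that of Slc22a26 lay between 7.81 and 8.22 and that of Slc22a27 between 6.52 and 7.86. Between wild-type sexes they lay at -8.17 to -6.98 and -7.67 to -6.26. In a fit of only the 2 wild-type groups Slc22a27 was not past the threshold. These genes were picked for such differences, so the ranges are a description. With normexp background correction, which adds 50 to every corrected signal, these large differences shrank, for example to 3.49 for Slc22a2, 4.19 for Slc22a26 and 3.11 for Slc22a27 in males.

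The rest of the family gives the setting of these genes. Of 16 other Slc22 genes considered 11 were above background, meaning well above it on both arrays of at least 1 group, and Slc22a12, Slc22a14, Slc22a19, Slc22a20 and Slc22a22 were not. In males labelled knockout 2 of the 11 rose, Slc22a29 and Slc22a23, an orphan carrier, and 2 fell, Slc22a4 and Slc22a15. Of all features 5.77% were past the threshold as higher and 4.93% as lower. Slc22a23 went from 3.65 and 3.45 to 4.34 and 4.15 (0.70 ± 0.13; limma, adjusted p = 0.0274). Slc22a15 went from -1.29 and -1.71 to -2.87 and -2.76 (-1.31 ± 0.29; adjusted p = 0.0403). In females the corresponding differences were 0.54 ± 0.13 and -1.30 ± 0.29 (limma, adjusted p = 0.0747 and 0.0564). Leaving out any single male array ended the male calls for both genes, and that for Slc22a15 also without either female knockout array (highest adjusted p over all alternatives 0.143 for Slc22a23 and 0.166 for Slc22a15).

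In females labelled knockout limma called none of the 11, beside 5.93% of all features. At an unadjusted p under 0.05 there were 3, beside 6612 of 26551 features. By sex limma called 1 among wild-type arrays (Slc22a29), beside 0.975% of all features, and none among those labelled knockout, beside 0.0753%. For the contrast of effects it called none, beside 0.188%. At an unadjusted p under 0.05 there was 1 by sex among arrays labelled knockout, beside 1594 of 26551 features. For the contrast there were 2, beside 2222. The other 7 genes were the kidney anion carriers Slc22a6 (OAT1) and Slc22a8 (OAT3), and Slc22a13, Slc22a16, Slc22a17, Slc22a18 and Slc22a21. Their differences lay between -0.37 (Slc22a21) and 0.19 (Slc22a17) in males and between -0.25 (Slc22a21) and 0.25 (Slc22a6) in females. Slc22a18 stayed between 5.79 and 6.39 on all 8 arrays.

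**Figure D4:**
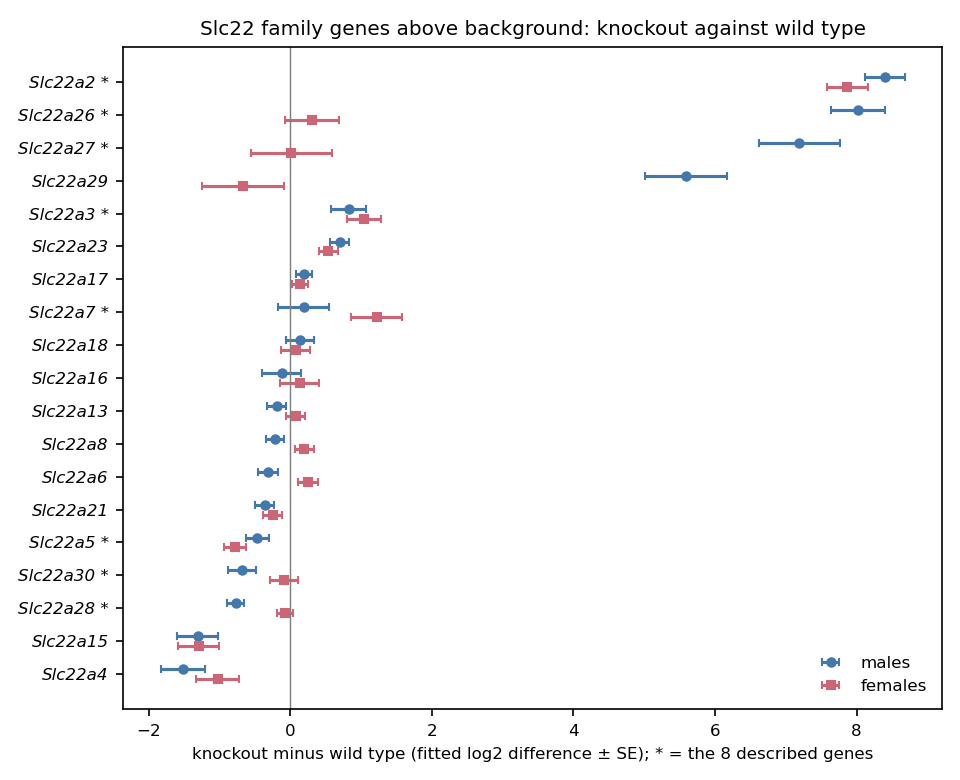
Fitted log2 difference ± SE of knockout minus wild type in males (circles) and females (squares) for the 19 Slc22 genes above background, the 8 described genes marked with an asterisk. Slc22a2 lies far to the right in both sexes (8.40 and 7.87), Slc22a26, Slc22a27 and Slc22a29 in males alone (8.02, 7.19 and 5.59), and Slc22a4 lies lowest in males at -1.52.

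Of 25 other carriers and pumps for organic ions tested, 4 were lower and none higher in males labelled knockout, beside 4.93% lower and 5.77% higher among all features. In females 3 were lower and none higher, beside 2.45% and 3.48%. Abcc3, an export pump for conjugates, fell by 2.38 ± 0.31 in males and by 2.70 ± 0.31 in females (limma, adjusted p = 0.00899 and 0.00949). The male call was kept in all 16 alternatives, and the female call was lost without either female knockout array (highest adjusted p 0.0584). Slco1b2, the main hepatocyte carrier of organic anions of its family, fell by 1.22 ± 0.15 and by 1.24 ± 0.15 (adjusted p = 0.00664 and 0.01). Its male call was lost without male knockout replicate 2 (adjusted p 0.0528), and its female call without either female knockout array (highest adjusted p over all alternatives 0.0773). Slc17a2, of the phosphate and anion carrier family, fell by 1.15 ± 0.20 and by 1.18 ± 0.20 (adjusted p = 0.0223 and 0.0305). Abcg2, an export pump, was 1.30 ± 0.14 higher in wild-type males than females (adjusted p = 0.0169) and fell by 0.86 ± 0.14 in males labelled knockout (adjusted p = 0.0157). Leaving out any single male array ended the male calls of Slc17a2 and Abcg2 (highest adjusted p over all alternatives 0.108 and 0.0979) and the sex call of Abcg2 (0.109); the last also ended with female wild-type replicate 1 removed. The female call of Slc17a2 was kept in 7 of 16 alternatives. It was lost with the replicate number as a block, with no filter, with only the groups compared, and without any single male array or either female knockout array (highest adjusted p 0.131). The median difference of the 25 genes was -0.28 in males and -0.32 in females, beside -0.04 and 0.00 for all features.

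Among 23 regulators and scaffold genes linked to Slc22 genes, 2 were higher and 5 lower in males labelled knockout, beside 5.77% higher and 4.93% lower among all features. In females 1 was higher and 3 were lower, beside 3.48% and 2.45%. Cux2, a homeodomain factor of the female liver, was -6.23 and -5.84 in wild-type males, against 2.59 and 2.47 in males labelled knockout, a rise of at least 109-fold (8.57 ± 0.26; limma, adjusted p = 0.000174). It was at least 35.7-fold lower in wild-type males than females (adjusted p = 0.000478), and both calls were kept in all 15 alternatives that gave a value. Over these alternatives its male difference ran from 3.92 to 8.76 and that between wild-type sexes from -7.29 to -2.42. In females Cux2 rose from 0.58 and 1.25 to 2.76 and 2.39, by 1.66 ± 0.26 (limma, adjusted p = 0.0240), where the 2 female groups overlapped for Slc22a26. The female call was lost in 6 of 15 alternatives: no filter, only the groups compared, and without any 1 of the 4 arrays labelled knockout (highest adjusted p 0.123). Esr1, the estrogen receptor, rose by 2.37 ± 0.22 in males (limma, adjusted p = 0.00291), a call kept in all 16 alternatives. In females Esr1 was 1.02 ± 0.22 higher without overlap and missed the threshold (limma, adjusted p = 0.0564). Its male effect minus its female effect, 1.36 ± 0.32, missed it too (limma, adjusted p = 0.335). Nr1h4, the bile acid receptor FXR, fell by 0.74 ± 0.12 in males and by 1.07 ± 0.12 in females (adjusted p = 0.0182 and 0.00909), and Cebpb by 1.12 ± 0.18 and by 1.52 ± 0.18 (adjusted p = 0.0174 and 0.0107). The male call of Nr1h4 ended when male wild-type replicate 2 or either male knockout array was left out, and that of Cebpb with any single male array (highest adjusted p over all alternatives 0.106 for both). The female call of Nr1h4 was lost without either female knockout array and with only the groups compared (highest 0.0680), and that of Cebpb with only the groups compared (0.0676).

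For the 5 genes whose group means spanned at least 1 on the log2 scale, the 3 genes with the closest course over the 8 arrays were found by the root mean square difference of centred levels. The points of each comparison are the same 8 arrays, so a small value says only that the courses ran alike. For Slc22a26 these were Cux2 (0.58), Slc22a27 (0.79) and Hao2 (0.82), a peroxisomal hydroxyacid oxidase. For Slc22a27 they were Hao2 (0.60), Slc22a29 (0.68) and the cytochrome P450 gene Cyp2b9 (0.74). For Slc22a2 they were the adrenergic receptor gene Adra2c (0.49), Gm32448 (0.65) and Ccdc38 (0.67), all 3 below background in both wild-type groups. For Slc22a3 they were Lhpp (0.13), Gm9895 (0.14) and Nipa1 (0.15). For Slc22a7 they were the interferon-induced gene Rsad2 (0.18), A930006K02Rik (0.21) and H3c7 (0.26), the last 2 near the background level.

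**Figure D5:**
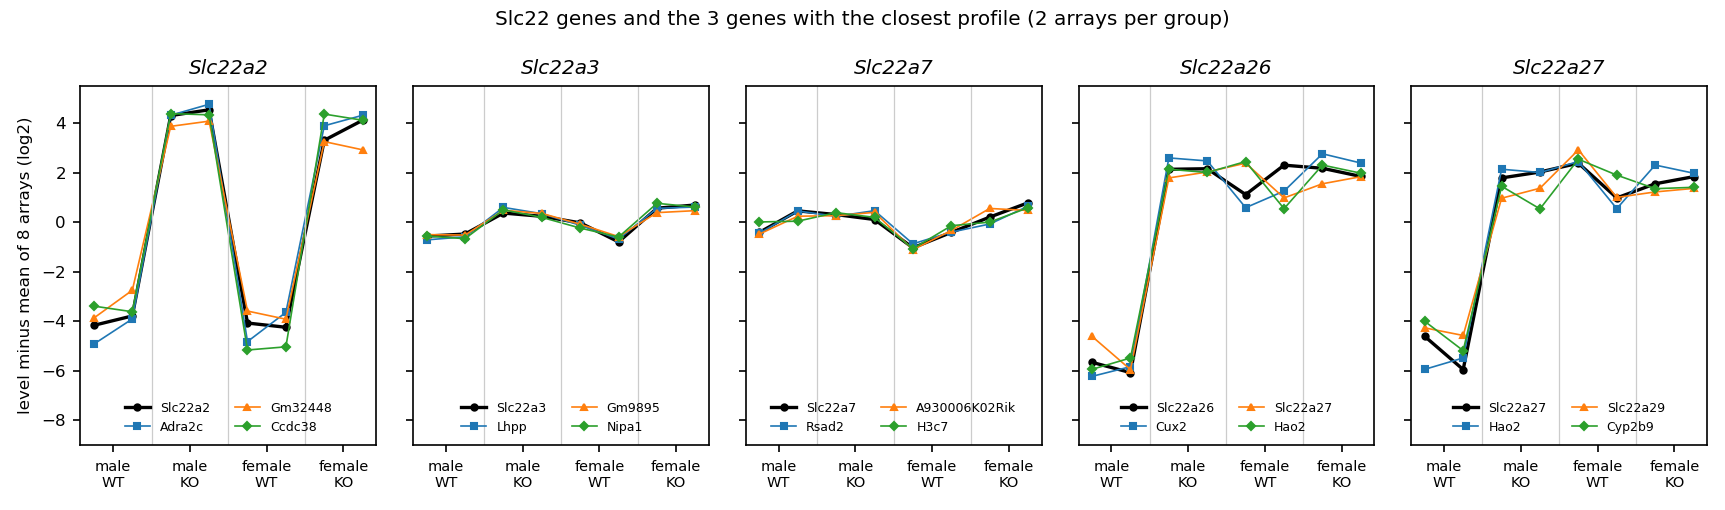
Course of 5 Slc22 genes and of the 3 genes closest to each over the 8 arrays (log2 level minus the gene's mean of 8 arrays; 2 arrays per group). Slc22a26 and Cux2 are lowest in both wild-type males and run within a root mean square difference of 0.58 of each other, and Slc22a2 and Adra2c are low in all 4 wild-type arrays (0.49).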

How the data were processed

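Total RNA of whole liver was labelled with Cy3 and read on 1-colour Agilent arrays, 1 per sample, per the labels' protocols. The deposited intensity of a spot is its processed signal, written by Agilent Feature Extraction (11.5.1.1 per the file headers, 9.1.3.1 per the submitters' processing notes). The deposited value table holds log2 values, equal to the log2 processed signal minus 1 constant per array (6.99 to 7.30) within 0.01 for 99.7% to 99.9% of probes, not centred per gene. All arrays lay on 1 slide, and 55 to 139 outlier spots per array were left out.

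Spots of a probe were averaged (56605 probes, 32994 named through RefSeq accessions), and log2 values were taken relative to the 75th percentile of their array. A probe was kept where both arrays of some group read it well above background (33580 probes). The brightest probe stood for a gene with several, leaving 26551 features. All 13 probes of the 8 genes passed. Limma 3.58.1 (R 4.3.3) was fitted with 4 group means over the 8 arrays, with Benjamini-Hochberg adjustment over all features at 0.05. The median SE was 0.16. The fit was tested on simulated data. Promoter windows were read from RefSeq's table with Python 3.11.15 and aligned with Biopython 1.88; figures used matplotlib 3.10.9.

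The 8 genes and the gene lists were chosen with earlier results of these data known. Named genes are the 8, the other Slc22 genes kept, up to 4 genes per list by smallest adjusted p, 3 closest courses per gene and neighbours past the threshold. A further gene of the family is not reported here. Alternatives were normexp (offset 50), quantile normalization, the value table, no filter or a filter on all 8 arrays, averaging the probes of a gene, the replicate number as a block, only the groups compared, and leaving out each array. Normexp used median spot signals, since mean signals were not used here. Same-numbered arrays of different groups correlated at -0.002 to 0.102 in their deviations, so the numbers were not taken to pair arrays.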

Additional observations from a re-analysis of the deposited data

Results flagged for a closer look

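Slc22a26, an organic anion transporter gene of the chromosome 19 cluster, differed between the sexes in its response to the knockout label. In males, knockout minus wild type was 8.02 ± 0.38 (SE, log2, n = 2 per group), with wild-type males not well above background and a rise of at least 168-fold. In females it was 0.30 ± 0.38. The difference of the 2 effects was 7.71 ± 0.54. Its neighbour Slc22a27 gave 7.18 ± 0.81 for the same quantity. Because these genes were picked for their values over the groups, this is a description.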

How the results depend on the processing

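For the 8 genes, the other Slc22 genes, the named list genes and the neighbours, no difference past the threshold changed direction under the alternatives run. Genes named only for a close course, and Bcl6, Xist and Ddx3y, were not followed under the alternatives. Of the 8 genes, 4 were past the threshold in males labelled knockout, 2 in females, 2 between wild-type sexes and 1 for the contrast of effects. Asking for a signal well above background on all 8 arrays, which removes Slc22a2, Slc22a26, Slc22a27 and Slc22a29, gave 1 in males, 1 between wild-type sexes and 0 for the contrast. In females, no filter, averaging the probes of a gene, the replicate number as a block and a fit of only the groups compared each gave 1. Only the groups compared gave 1 between wild-type sexes, Slc22a26. Normexp and averaged probes each gave 2 for the contrast. Leaving out 1 array gave 3 to 6 in males, 1 to 2 in females, 2 to 3 between wild-type sexes and 0 to 2 for the contrast. Of the 11 other Slc22 genes (16 with no filter, 10 with the all-array filter), 4 were called in males (1 with no filter, 1 to 4 with an array left out), 0 in females (1 with no filter, Slc22a19, which is not among the 11, 1 with the all-array filter, Slc22a15, and 0 to 2), 1 between wild-type sexes (0 with the all-array filter, 0 with only the groups compared, 0 to 1) and 0 for the contrast (0 to 1). With the replicate block the other counts for the 8 genes were 4, 2, 0 and 1, and for the other Slc22 genes 3, 0, 1, 0 and 0. The cause of these shifts was not tested beyond what the filters remove.

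Over all features, 2841 calls in males became 1225 without a filter and 809 to 3178 with 1 array left out, 1574 in females became 367 with only the groups compared, 2649 with normexp and 404 to 1633, 259 between wild-type sexes became 43, 614 and 98 to 493, 20 in arrays labelled knockout became 1 with the all-array filter and 9 to 20, and 50 for the contrast became 16 without a filter, 75 with normexp and 0 to 123. Of the values of the 8 genes under the alternatives 567 kept within the spread and 50 moved beyond it. Many of the 567 could not move. Leaving out an array outside a comparison, the replicate block and a fit of only the groups compared leave a difference of group means unchanged. These counts therefore do not measure stability. Signals below background limit Slc22a2, Slc22a26 and Slc22a27 to lower bounds.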

Other observations

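Of the genes within 3 places of each of the 8 genes in the reference order, 2 others outside the family passed limma's threshold in some contrast. Irf1, an interferon-regulated transcription factor gene near Slc22a5, rose by 0.61 ± 0.10 in males labelled knockout and by 0.68 ± 0.10 in females (adjusted p = 0.0191 and 0.0214), while Slc22a5 stood lower in both. The male call was lost without any single male array, with no filter and with averaged probes (highest adjusted p 0.113). The female call was lost in 7 of 16 alternatives, among them either female knockout array left out (highest 0.118). Ttbk1, which encodes a tau tubulin kinase and lies near Slc22a7, was dim, and was well above background in wild-type males alone. It fell at least 2.18-fold in males labelled knockout (adjusted p = 0.00051) and was at least 2.55-fold higher in wild-type males than females (adjusted p = 0.00227). Its probe was kept through the wild-type males alone. With normexp background correction both calls were lost, and the differences shrank from -2.09 to -0.25 and from 2.02 to 0.39 (adjusted p = 0.0848 and 0.0511).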
